A study of Mus musculus with 16 samples.

Results

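The genes described here are 7 complement genes, namely C3, C4b, Cfb, Cfp, Serping1, C3ar1 and C5ar1. They were taken by symbol from the raw count tables of CD11b+ cells sorted from mouse tumours, in which they were 7 of 24421 genes. Of these 7 members, 6 had enough counts to be tested and Serping1 did not.

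Complement is a cascade of secreted proteins in which C3 is the component on which all activation routes converge. The classical route cleaves C4, which the mouse gene C4b encodes, while the alternative route cleaves C3 through a convertase that contains factor B (Cfb) and is stabilised by properdin (Cfp). C1 inhibitor (Serping1) restrains the proteases of the classical route. The fragments C3a and C5a act on the G protein-coupled receptors C3aR (C3ar1) and C5aR1 (C5ar1), which are found on monocytes, macrophages and neutrophils, and macrophages are a known local source of several of the components.

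The experiment asked how CD11b+ cells differ with the time they have spent in the tumour. MC38-Ova tumours, a mouse colon adenocarcinoma line carrying ovalbumin, were grown under the skin of C57BL/6 mice that are transgenic for Kaede, a protein that changes from green to red fluorescence under violet light. The mice were female and 8 to 14 weeks old at collection, and the tumours were lit on day 13 after injection. The labels give the treatment as control, and the study's methods name no treatment for these libraries. Kaede-green cells had thus entered the tumour since the illumination, whereas Kaede-red cells had been in it then and kept some green signal. Cells positive for CD45, Kaede and CD11b and negative for TER119 and NK1.1 were sorted alive at 24h and 72h, which gave 4 groups of 4 libraries, all of 1 batch by the labels, and all 16 libraries share the transgene, the tumour line and the sort gate. The study describes its samples as tumours from independent mice, but the labels do not say whether a Kaede-green and a Kaede-red library with the same number came from 1 tumour, so the p-values below measure the spread between these libraries as given. The gate selects on CD11b and not on a single cell type, and in such bulk libraries fewer cells of a type and less RNA per cell cannot be told apart.

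The libraries held 3216858 to 15423085 counts, of which the ribosomal RNA precursor Rn45s took 79.0 to 93.4% in Kaede-green and 55.8 to 84.9% in Kaede-red libraries. Outside Rn45s, 468092 to 912689 counts were left in the Kaede-green and 758192 to 5472477 in the Kaede-red libraries, so that the Kaede-green values are the less precise. The replicates 3 and 4 of Kaede-red at 24h, with 83.1 and 84.9% of their counts in Rn45s, stood apart from the other libraries of their group. Levels are given as CPM, the count of a gene relative to the TMM-scaled total of its library, and each difference as a log2 fold change with its standard error (SE) and an adjusted p-value, all from edgeR's quasi-likelihood test on 9642 genes with Benjamini-Hochberg adjustment. A gene was called where the adjusted p-value was under 0.05.

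Over both times, all 6 tested members were called higher in Kaede-red than in Kaede-green cells, where 9.96% of all tested genes were called higher and 10.3% lower. Of these, C4b, C3ar1 and C5ar1 did not overlap between the colours, as held for 1.19% of all genes in that direction. At 24h, C4b, C3ar1 and C5ar1 were called higher (3 of 6), against 3.2% of all genes called higher and 4.3% lower, and the same 3 did not overlap (7.07% of all genes in that direction). At 72h all 6 were called higher, against 8.07% higher and 8.76% lower among all genes, and none of the 6 overlapped between the colours (13% of all genes in that direction). No member was called lower in any comparison. On the log2 scale the median difference of the 6 members was 0.82 for the times together, 0.54 for 24h and 1.22 for 72h, beside medians of 0.06, 0.05 and 0.03 for all tested genes. Of the 6, C3, Cfb, Cfp, C3ar1 and C5ar1 had at least 10 counts in 16 of 16 libraries. C4b reached that in 11 libraries, of which 3 were Kaede-green, so that it entered the test through the group in which it was high. Better-counted genes were called more often. In a fit limited to the 3084 genes with at least 10 counts in each library, 42% were called at 72h in either direction. The share was 19.1% at 24h and 44.2% for the times together. Among all tested genes these shares were 16.8%, 7.51% and 20.2%.

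Between 24h and 72h, C3 alone was called higher among the members, and this was in Kaede-red cells, where 4.91% of the tested genes were called higher. C3 and Cfb did not overlap between the times there, as held for 11.8% of all genes in that direction. In Kaede-green cells no member was called with time, nor was any of the 9642 genes (0%), although 835 had an unadjusted p-value under 0.05 and DESeq2 called 13. The interaction of colour and time, that is the growth or shrinkage of the difference between colours, was called for no member, and for 0.767% of all genes in either direction. The plot of fitted differences shows both contrasts side by side.

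**Figure D1:**
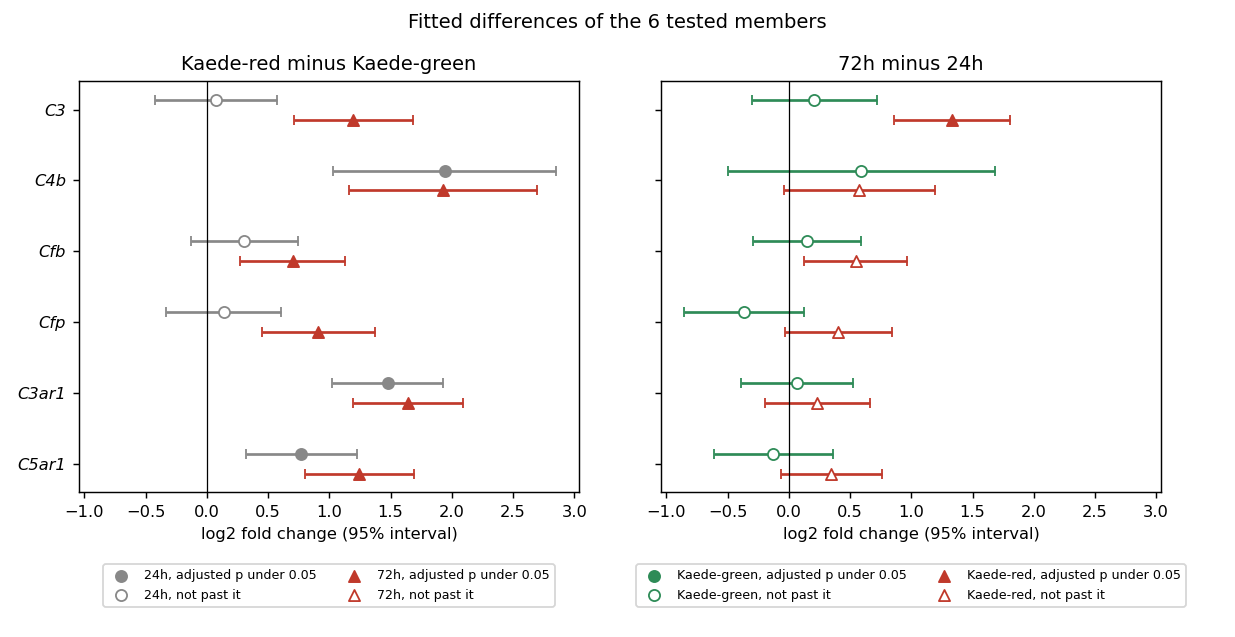
Log2 fold changes of the 6 tested members with 95% intervals, for Kaede-red minus Kaede-green cells at 24h (grey circles) and 72h (red triangles) on the left, and for 72h minus 24h in Kaede-green (green circles) and Kaede-red cells (red triangles) on the right; filled symbols have an adjusted p-value under 0.05. All 6 lie above 0 at 72h on the left, and C3, at 1.33, is the filled symbol on the right.

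All 7 genes lie on the minus strand of mm10 and are annotated as protein coding in GENCODE vM21. C3 spans chr17:57203970-57228136, and C4b (chr17:34728380-34743882) and Cfb (chr17:34856374-34862518) lie close to each other on the same chromosome. The receptors C3ar1 and C5ar1 are at chr6:122847138-122856161 and chr7:16246743-16259540, Cfp is at chrX:20925454-20931555 and Serping1 at chr2:84765387-84775444. The values are sums over exons, so untranslated and coding parts of these genes are not told apart. On the same strand, the annotation has the miRNA Mir6972 within Cfb and the miRNA Mir6978 within C3, with which reads could be shared. The read-through gene Gm20547 (chr17:34856412-34882042) overlaps Cfb on that strand and extends beyond it. The counts had no entry for Gm20547, so its reads over Cfb were not told apart.

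RefSeq promoters (GRCm38.p6, the assembly behind mm10) were at hand for 4 of the 7 members, C3, Cfp, C3ar1 and C5ar1. Those of C3, which rose in Kaede-red cells with time, and of C3ar1 and C5ar1, which were higher in Kaede-red cells at both times, are shown in the direction of transcription, with any motif match in capitals. Of the 250 bases upstream of the RefSeq start site, each line gives 1 unbroken stretch outside annotated exons, so that for C3ar1 the 4 bases next to the start site are left out, and for C5ar1 an exon of 28 bases from another transcript and the bases beyond it. They are C3 (chr17:57228137-57228386, minus strand), C3ar1 (chr6:122856162-122856407, minus strand) and C5ar1 (chr7:16259339-16259512, minus strand).
C3: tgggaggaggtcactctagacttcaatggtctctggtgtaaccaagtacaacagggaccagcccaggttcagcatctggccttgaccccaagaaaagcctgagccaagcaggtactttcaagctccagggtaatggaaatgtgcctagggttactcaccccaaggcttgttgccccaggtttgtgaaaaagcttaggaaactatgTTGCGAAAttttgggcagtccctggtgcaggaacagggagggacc
C3ar1: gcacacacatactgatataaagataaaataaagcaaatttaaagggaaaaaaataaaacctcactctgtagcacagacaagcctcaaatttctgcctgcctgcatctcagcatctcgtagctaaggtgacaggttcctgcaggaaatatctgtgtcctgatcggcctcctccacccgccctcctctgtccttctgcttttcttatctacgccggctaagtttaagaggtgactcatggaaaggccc
C5ar1: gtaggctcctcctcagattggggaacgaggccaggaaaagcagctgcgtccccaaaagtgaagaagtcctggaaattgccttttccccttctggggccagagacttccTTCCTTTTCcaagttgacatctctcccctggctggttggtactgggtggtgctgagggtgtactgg

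The motifs searched on both strands of all 250 bases were TTCNNNGAA (the interferon-activated site GAS), GAAANNGAA (the core of the interferon-stimulated element ISRE), GGGANNTTC (part of an NF-kB site), TTGCNNAA (C/EBP) and GAGGAA (PU.1). The C3 promoter held 1 of them, a C/EBP match that starts 45 bases before the start site, and 9.56% of the 32851 mouse promoters held such letters in the 250 bases upstream. The C5ar1 promoter held the ISRE core on the other strand, 66 bases before the start site, as did 7.13% of all promoters. Neither C3ar1 nor Cfp had a match in its window, and a match of letters is a description and does not mark a bound site.

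C3 had group means between 25.7 and 30.1 CPM in 3 of the groups, and the Kaede-red libraries of 72h stood above them. In Kaede-green libraries it read 22.8, 31.5, 35.0 and 13.5 CPM at 24h and 35.3, 25.6, 26.5 and 32.9 CPM at 72h. In Kaede-red libraries it read 37.3, 31.9, 22.3 and 17.9 CPM at 24h and 77.03, 67.9, 59.3 and 70.8 CPM at 72h. The lowest Kaede-red library at 72h was thus above every other library, while the 2 colours overlapped at 24h.

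At 72h, C3 was 2.29-fold higher in Kaede-red than in Kaede-green cells (log2 fold change 1.197, SE 0.24, adjusted p = 0.000492, edgeR). At 24h its difference was 0.07 (95% interval -0.42 to 0.57, adjusted p = 0.904, edgeR), and over both times it was 0.64 (SE 0.17, adjusted p = 0.00692, edgeR). Within Kaede-red cells C3 rose 2.51-fold from 24h to 72h (1.33, SE 0.23, adjusted p = 0.00102, edgeR), whereas within Kaede-green cells the difference was 0.21 (interval -0.30 to 0.72, adjusted p = 0.860). The test of whether the difference between colours itself grew gave 1.12 (SE 0.34) with an adjusted p of 0.0906, so that this growth did not pass the threshold. It did pass when Kaede-green 24h replicate 4 (1.32, adjusted p = 0.0335, edgeR) or Kaede-red 24h replicate 1 (1.31, adjusted p = 0.0448) was left out, and with DESeq2 (1.08, adjusted p = 0.0481).

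The call of C3 with time in Kaede-red cells held in each of the 16 fits that left out 1 library, between 1.17 and 1.52. Without replicates 3 and 4 of Kaede-red at 24h it was 0.96 with an adjusted p of 0.147 (edgeR), and those 2 libraries held the lowest C3 values of their group (22.3 and 17.9 CPM). That fit keeps 2 of the 4 libraries of the group, and the share of all genes called with time in Kaede-red cells was 0.0933% in it (9 of 9642) against 8.67% with all libraries, so the reason for the lost call was not tested.

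C4b was low throughout and several-fold higher in Kaede-red cells at both times. Its counts in Kaede-green libraries were 0, 5, 10 and 2 at 24h and 4, 10, 13 and 6 at 72h, which is 0 to 2.55 CPM and 1.46 to 3.16 CPM. The Kaede-red libraries had 72, 54, 34 and 78 counts at 24h, or 6.31, 6.56, 6.15 and 5.03 CPM. At 72h they had 132, 353, 58 and 608 counts, or 5.15, 8.88, 8.75 and 12.8 CPM. Every Kaede-red library was therefore above every Kaede-green one.

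The difference in C4b was 1.94 at 24h (SE 0.45, adjusted p = 0.00482) and 1.93 at 72h (SE 0.38, adjusted p = 0.000433), and 1.93 over both times (SE 0.29, adjusted p = 8.07e-06, edgeR). From 24h to 72h, C4b differed by 0.58 in Kaede-red cells (adjusted p = 0.255) and by 0.59 in Kaede-green cells (adjusted p = 0.793, edgeR), neither of which passed. C4a, the neighbouring copy of the gene (chr17:34809092-34823464), shares sequence with C4b, and 8.26% of the 150-base and 35.2% of the 50-base stretches of the C4b exons occur letter for letter in C4a, so the split of reads between them is uncertain. C4a was at 2.13 ± 0.680 CPM in Kaede-red and 0.562 ± 0.654 CPM in Kaede-green libraries at 24h (SD, n = 4), and with the counts of C4b and C4a summed the difference over both times was 1.83 (adjusted p = 7.00e-06, edgeR).

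Cfb and Cfp, the members of the alternative route, had at least 36 counts in every library and were called higher in Kaede-red cells at 72h, not at 24h. The interaction with time was 0.39 for Cfb (adjusted p = 0.567) and 0.77 for Cfp (adjusted p = 0.242, edgeR), so it was not called. Cfb read 54.0, 61.3, 41.6 and 50.6 CPM in Kaede-green and 75.7, 79.0, 55.8 and 45.3 CPM in Kaede-red libraries at 24h. At 72h it read 63.8, 67.0, 37.9 and 61.2 CPM in Kaede-green and 109, 99.97, 84.5 and 79.5 CPM in Kaede-red libraries. The colours overlapped at 24h and stood apart at 72h, where all 4 Kaede-red libraries were above all 4 Kaede-green ones. The Kaede-red libraries that overlapped at 24h, at 55.8 and 45.3 CPM, were the 2 with most Rn45s. Without these 2 libraries the interaction was 0.10 for Cfb and 0.51 for Cfp, and neither was called. That fit keeps 2 of the 4 libraries of the group, so their part in the contrast between the times was not tested.

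For Cfb the difference was 0.31 at 24h (interval -0.13 to 0.74, adjusted p = 0.446), 0.70 at 72h (SE 0.21, adjusted p = 0.0181) and 0.50 over both times (SE 0.15, adjusted p = 0.0150, edgeR). From 24h to 72h the Kaede-red libraries did not overlap either (0.54, SE 0.21), but the adjusted p of 0.0982 (edgeR) missed the threshold. The call at 72h was lost without Kaede-green 72h replicate 3, the lowest library (0.52, adjusted p = 0.110, edgeR), and without Kaede-red 72h replicate 1 (adjusted p = 0.0744) or 2 (adjusted p = 0.0512). The call over both times was lost without Kaede-green replicate 3 of 24h (adjusted p = 0.0517, edgeR) or of 72h (adjusted p = 0.0527).

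Cfp, whose product properdin is known to be made and stored by myeloid cells, had 25.6, 26.2, 22.2 and 14.7 CPM in Kaede-green and 29.6, 27.9, 20.1 and 19.3 CPM in Kaede-red libraries at 24h. At 72h it had 14.9, 18.3, 12.6 and 22.6 CPM in Kaede-green and 30.8, 36.3, 37.4 and 24.5 CPM in Kaede-red libraries. As for Cfb, the colours overlapped at 24h, through the same Kaede-red libraries (20.1 and 19.3 CPM), and did not at 72h. The difference was 0.14 at 24h (interval -0.33 to 0.60, adjusted p = 0.795), 0.91 at 72h (SE 0.23, adjusted p = 0.00450) and 0.52 over both times (SE 0.16, adjusted p = 0.0193, edgeR). Its change with time was -0.37 in Kaede-green (adjusted p = 0.696) and 0.41 in Kaede-red cells (adjusted p = 0.254, edgeR). The call over both times was lost without Kaede-red 24h replicate 1 (adjusted p = 0.0523, edgeR) or Kaede-green 72h replicate 3 (adjusted p = 0.0617).

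Serping1, the C1 inhibitor, had few counts in these libraries. The Kaede-green libraries held 0, 2, 0 and 0 counts at 24h and none in any of the 4 at 72h, while the Kaede-red libraries held 4, 4, 2 and 2 counts at 24h and 4, 0, 3 and 11 at 72h. Pooled over a group, the 24h level was 0.188 CPM for Kaede-green and 0.295 CPM for Kaede-red cells, a ratio of 1.56 whose exact counting interval ran from 0.348 to 14.4. At 72h the pooled Kaede-red level was 0.151 CPM, and a count of 0 in Kaede-green allows up to 0.214 CPM (3 counts over the group), so that a difference was not detectable at this depth. Intervals and floors of this kind cover counting error only.

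The receptors were higher in Kaede-red cells at both times. C3ar1 read 54.0, 58.9, 49.8 and 28.2 CPM in Kaede-green and 149, 146, 118 and 117 CPM in Kaede-red libraries at 24h. At 72h it read 34.2, 42.6, 70.0 and 51.9 CPM in Kaede-green and 158, 156, 148 and 161 CPM in Kaede-red libraries. The lowest Kaede-red library, at 117 CPM, lay above the highest Kaede-green one, at 70.0 CPM.

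C3ar1 was 2.78-fold higher in Kaede-red cells at 24h (log2 fold change 1.48, SE 0.22, adjusted p = 3.97e-05) and 3.12-fold higher at 72h (1.64, SE 0.22, adjusted p = 2.78e-06, edgeR). Over both times the difference was 1.56 (SE 0.16, adjusted p = 1.08e-08, edgeR), and it remained past the threshold in each of the 16 fits that left out 1 library, between 1.45 and 1.65. Its change with time was 0.07 in Kaede-green (interval -0.39 to 0.52, adjusted p = 0.964) and 0.23 in Kaede-red cells (interval -0.19 to 0.66, adjusted p = 0.562, edgeR).

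C5ar1, the receptor of C5a, read 12.3, 21.3, 13.8 and 17.96 CPM in Kaede-green and 32.1, 32.5, 23.7 and 23.1 CPM in Kaede-red libraries at 24h. At 72h it read 20.04, 11.9, 14.8 and 13.5 CPM in Kaede-green and 37.3, 35.7, 41.1 and 28.2 CPM in Kaede-red libraries. Here too no Kaede-red library reached down to a Kaede-green one, of either time. The difference was 0.77 at 24h (SE 0.22, adjusted p = 0.0287), 1.24 at 72h (SE 0.22, adjusted p = 0.000112) and 1.01 over both times (SE 0.16, adjusted p = 1.20e-05, edgeR). The call at 24h was lost without Kaede-green 24h replicate 1 (adjusted p = 0.102, edgeR) or 3 (adjusted p = 0.117), without Kaede-red 24h replicate 1 (adjusted p = 0.0883) or 2 (adjusted p = 0.0964), and in a fit of these 2 groups alone (adjusted p = 0.0604). Time made a difference of -0.13 in Kaede-green (adjusted p = 0.921) and of 0.35 in Kaede-red cells (adjusted p = 0.314, edgeR).

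**Figure D2:**
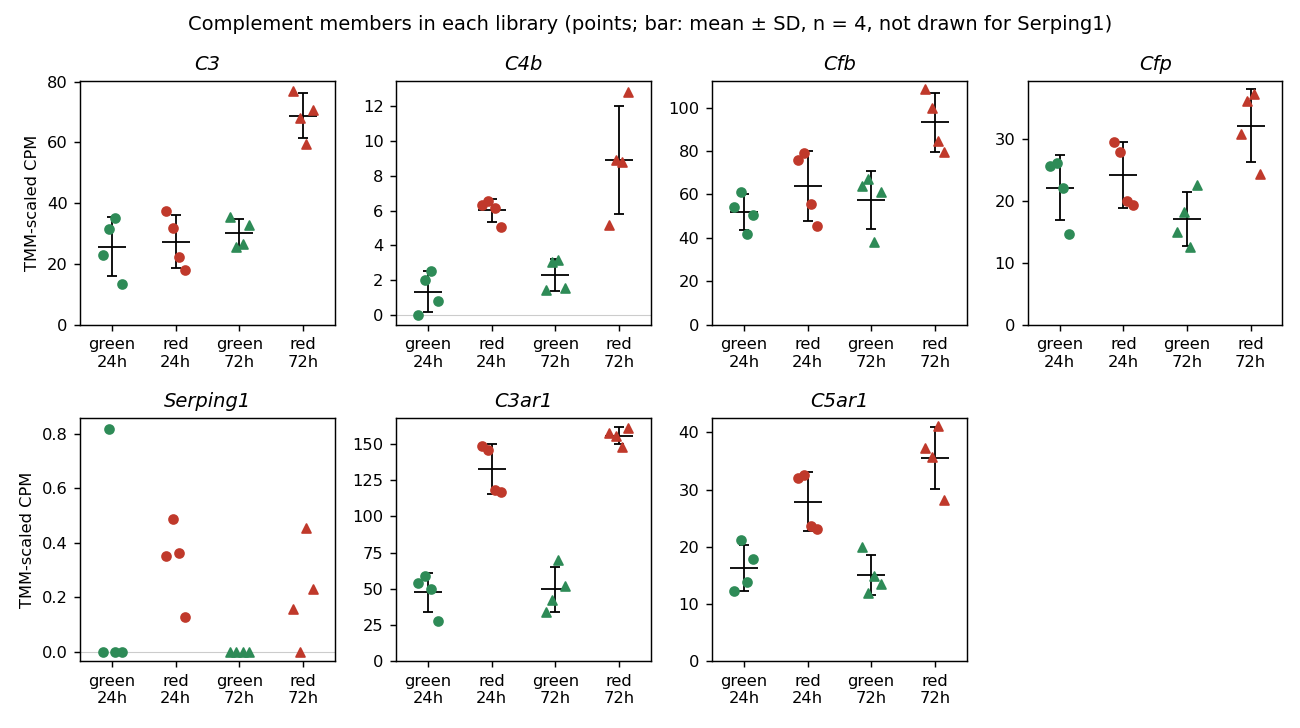
TMM-scaled CPM of each of the 7 members in every library, with circles for 24h and triangles for 72h, green for Kaede-green and red for Kaede-red, and bars for the mean ± SD of 4 libraries (not drawn for Serping1). C4b, C3ar1 and C5ar1 separate by colour at both times, C3 is high in Kaede-red libraries at 72h (59.3 to 77.03 CPM), and Serping1 is at or near 0.

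Ordered by group mean, the levels of C3ar1 ran from 47.7 ± 13.5 CPM in Kaede-green at 24h over 49.7 ± 15.3 in Kaede-green at 72h and 133 ± 17.2 in Kaede-red at 24h to 156 ± 5.72 in Kaede-red at 72h (SD, n = 4). Of its neighbouring steps, that from Kaede-green at 72h to Kaede-red at 24h passed the threshold (1.41, adjusted p = 0.000110, edgeR). C4b had the same order, from 1.35 ± 1.16 to 8.89 ± 3.11 CPM, and the same step passed (1.35, adjusted p = 0.0420, edgeR). C5ar1 ran from 15.1 ± 3.53 CPM in Kaede-green at 72h over 16.3 ± 4.08 and 27.8 ± 5.15 to 35.6 ± 5.40 CPM in Kaede-red at 72h, with a step between Kaede-green and Kaede-red at 24h. For C3 the step that passed was the last, from 30.1 ± 4.79 CPM in Kaede-green to 68.8 ± 7.35 CPM in Kaede-red at 72h. The neighbouring groups of Cfb, from 51.9 ± 8.18 to 93.2 ± 13.5 CPM, and of Cfp, from 17.1 ± 4.31 to 32.2 ± 5.93 CPM, did not differ past the threshold at any step.

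To compare members with each other, levels were divided by exon length. In Kaede-green cells at 24h, Cfb was the highest member at 18.4 ± 2.90 CPM per kb, ahead of Cfp at 12.8 ± 3.04 and C3ar1 at 11.1 ± 3.15 (SD, n = 4). In Kaede-red cells C3ar1 had the highest mean, at 30.8 ± 3.99 CPM per kb at 24h and 36.2 ± 1.33 at 72h. Cfb was next, at 22.6 ± 5.71 and 33.0 ± 4.79. In Kaede-red 72h replicate 1, Cfb (38.5 CPM per kb) was above C3ar1 (36.7), and the order of these members was not tested. C3 lay below these in every group, at 4.99 ± 1.87 CPM per kb in Kaede-green at 24h and 13.4 ± 1.43 in Kaede-red at 72h, and C4b was the lowest of the 6 at 0.238 to 1.56 CPM per kb.

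**Figure D3:**
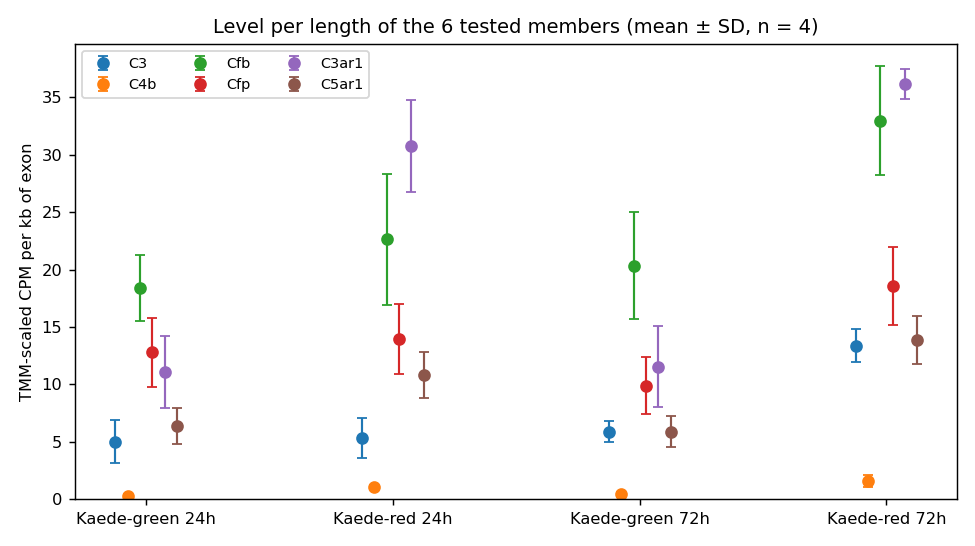
Mean level of the 6 tested members per kb of exon (TMM-scaled CPM per kb, mean ± SD of 4 libraries) in the 4 groups. Cfb is the highest in both Kaede-green groups (18.4 and 20.3 CPM per kb) and C3ar1 in both Kaede-red groups (30.8 and 36.2).

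Ratios between members were compared as well. The log2 ratio of C3ar1 to C5ar1 was 1.52 ± 0.641 in Kaede-green and 2.26 ± 0.0839 in Kaede-red libraries at 24h (SD, n = 4), a difference of 0.74 with a two-sided exact permutation p of 0.0286, the smallest that 70 relabellings allow. At 72h the difference of this ratio was 0.45 (exact permutation p = 0.257), and over both times 0.60 (exact permutation p = 0.0118). The log2 ratio of Cfb to C3 fell by 0.81 in Kaede-red libraries from 24h to 72h (exact permutation p = 0.0286). These ratios were picked after the values had been seen, and with adjustment over the 10 tests made on them the p-values of 0.0118 and 0.0286 became 0.0952.

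Across the 16 libraries, C3ar1 and C5ar1 had the most similar log2 levels of any pair of members (Pearson r = 0.814), and the other pairs ranged from 0.357 for C4b and Cfp to 0.765 for C3 and Cfb. These libraries share the contrast of colours, and after subtraction of the group means the correlation of C3ar1 with C5ar1 was -0.11, while that of C3 with Cfp was 0.60. Among 1383 genes with a mean log2 CPM of at least 4, the genes most like each member over the 16 libraries were Dhx58 (r = 0.962), Itgb2 (0.959) and Jak1 (0.949) for C3. They were Ptpn6 (0.959), Cyth4 (0.911) and Mpeg1 (0.910) for Cfb, and Actr2 (0.887), Unc93b1 (0.887) and Cotl1 (0.884) for Cfp. For C4b they were Nmt1 (0.914), Ptp4a2 (0.884) and Ptms (0.850), for C3ar1 Ctsb (0.960), Fcgr2b (0.952) and C1qc (0.952), and for C5ar1 Efhd2 (0.947), Grn (0.944) and Adam8 (0.921). Such values describe these libraries, which share depth and group structure, and carry no test.

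Of 52 other complement genes, 18 had enough counts to be tested, and 10 of these were called higher and none lower in Kaede-red cells over both times (9.96% and 10.3% of all genes). At 24h the counts were 5 higher and none lower (3.2% and 4.3% of all genes), and at 72h they were 8 higher and 2 lower (8.07% and 8.76%). Among the 10 called over both times was C4a (adjusted p = 0.0116, edgeR), which had at most 5 counts in any Kaede-green library. Since the split of reads between C4a and the member C4b is uncertain, this call may not be separate from that of C4b. The 3 C1q chains, which recognise targets for the classical route, were higher at both times, by 2.72 for C1qa (adjusted p = 2.46e-13), 2.53 for C1qc (adjusted p = 2.60e-11) and 2.26 for C1qb (adjusted p = 1.52e-09, edgeR, over both times). C1qa, for example, read 78.7 ± 18.8 CPM in the Kaede-red libraries at 24h, against 8.39 ± 1.91 CPM in the Kaede-green ones (SD, n = 4). Of the proteases of the C1 complex, C1ra and C1rb were tested and neither was called, and none of the 7 recognition genes of the lectin route or the 6 genes of the terminal components had enough counts to be tested. Nor had C2, the partner of C4 in the classical convertase, whose highest count in a library was 14.

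Among the receptors, Cd93 was higher by 1.43 (adjusted p = 1.29e-07), Itgax by 1.03 (adjusted p = 5.23e-05), Lrp1 by 0.75 (adjusted p = 0.000112) and C5ar2, the second C5a receptor, by 0.77 (adjusted p = 0.0253, edgeR, over both times). Itgam, which encodes CD11b itself, and Itgb2 give the chains of complement receptor 3. They were not called at 24h (-0.03, adjusted p = 0.964, and 0.05, adjusted p = 0.918, edgeR). At 72h both were called higher in Kaede-red cells (0.90, adjusted p = 0.000973, and 0.72, adjusted p = 0.00762, edgeR). Itgam read 74.9 ± 12.5 CPM in Kaede-red libraries at 24h and 148 ± 11.6 CPM at 72h (SD, n = 4). From 24h to 72h in Kaede-red cells, Itgam (0.98, adjusted p = 0.00181), Itgax (1.10, adjusted p = 0.00279), Itgb2 (0.81, adjusted p = 0.00714), Lrp1 (0.67, adjusted p = 0.0237) and Cd93 (0.74, adjusted p = 0.0296, edgeR) were called higher, as C3 was. None of the 18 was called with time in Kaede-green cells. The 2 genes that were lower in Kaede-red cells at 72h were Clu (-2.14, adjusted p = 0.0141), a fluid-phase regulator, and Cr1l (-0.90, adjusted p = 0.0359, edgeR), a membrane regulator. Clu was low at 72h, with 4 to 21 counts in Kaede-green libraries (1.22 to 5.10 CPM) and 3 to 46 in Kaede-red ones (0.312 to 0.966 CPM).

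**Figure D4:**
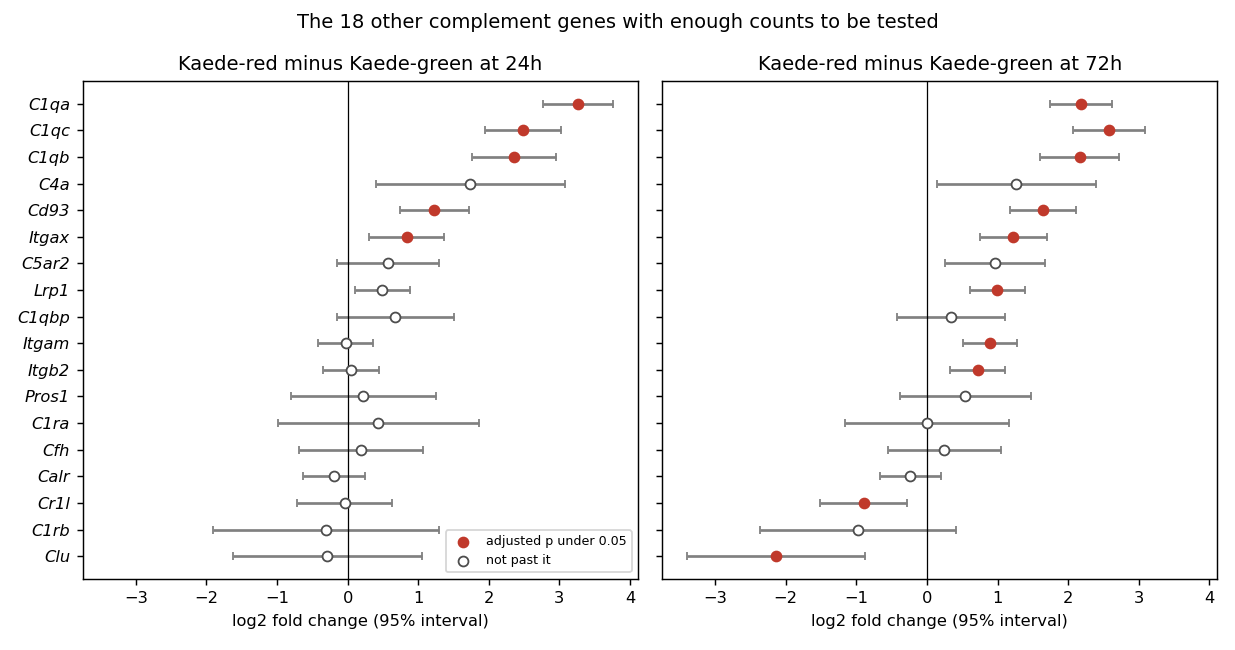
Log2 fold changes of the 18 other tested complement genes for Kaede-red minus Kaede-green cells at 24h (left) and 72h (right), with 95% intervals; red points have an adjusted p-value under 0.05. The C1q chains lie above 2 at both times, and Itgam and Itgb2 lie near 0 at 24h and at 0.90 and 0.72 at 72h.

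The sorted cells carried macrophage and monocyte transcripts. The 8 macrophage markers summed to 297 to 496 CPM in Kaede-green and 465 to 765 CPM in Kaede-red libraries, with 7 of the 8 called higher in Kaede-red cells over both times, and none was at 0. The 6 monocyte markers summed to 712 to 1609 CPM in Kaede-green and 482 to 747 CPM in Kaede-red libraries, with 4 of the 6 called lower. At 24h, 6 macrophage markers were called higher and 4 monocyte markers lower, and at 72h these counts were 7 and 1. From 24h to 72h in Kaede-red cells, 3 monocyte markers were called higher. Most macrophage markers were thus higher in Kaede-red cells at both times, as were C4b, C3ar1, C5ar1 and the C1q chains. The part of both marker sets in the differences was not tested.

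Markers of other cells also moved, at lower levels. The 9 neutrophil markers summed to 8.58 to 12.2 CPM in Kaede-green libraries, 9.05 to 14.5 CPM in Kaede-red at 24h and 17.8 to 23.2 CPM in Kaede-red at 72h, the group in which C3 was high. This rise lay in Csf3r (1.12 at 72h, adjusted p = 0.000944, edgeR), whereas S100a8 and S100a9, the most abundant transcripts of neutrophils, had group means of at most 1.10 and 1.15 CPM and Ngp was at 0 in every library. The 8 fibroblast markers summed to 42.5 to 58.6 CPM in Kaede-green, 20.7 to 39.1 CPM in Kaede-red at 24h and 13.005 to 20.1 CPM in Kaede-red at 72h. All 5 tested fibroblast genes were called lower in Kaede-red cells at 72h. The 6 endothelial markers summed to 9.75 to 19.2 CPM in Kaede-green and 18.1 to 36.7 CPM in Kaede-red libraries, with Kdr and Pecam1 called higher and Cdh5 lower over both times. Dendritic, epithelial, T and NK, B, and mast cell and eosinophil markers each summed to at most 5.71 CPM in any library, and erythroid markers to at most 11.3 CPM. The part of the neutrophil, fibroblast and endothelial markers in the results was not tested.

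The Rn45s share moved with colour as well (79.0 to 93.4% against 55.8 to 84.9%), and most calls of members were lost in a fit that held it constant. With the share of each library as a covariate, C3ar1 stayed past the threshold over both times (1.24, adjusted p = 0.00476, edgeR), whereas C4b (1.502, adjusted p = 0.0755) and C5ar1 (0.90, adjusted p = 0.0716) did not. C3 (0.03, adjusted p = 0.984), Cfb (0.19, adjusted p = 0.878) and Cfp (0.24, adjusted p = 0.841, edgeR) had much smaller differences in that fit, in which 1.62% of all genes were called. The difference of C3 between the colours at 72h was not called in that fit either (0.54, adjusted p = 0.684, edgeR). The rise of C3 in Kaede-red cells from 24h to 72h was called in it (1.08, adjusted p = 0.0157, edgeR). With the Kaede-red libraries thinned to the Kaede-green depth, 6 members and 7 of the other complement genes were called over both times, and 17.5% of all genes.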

How the data were processed

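RNA of sorted CD11b+ cells was made into stranded total RNA libraries. Per the study's methods, Trim Galore was used for trimming, HISAT2 for alignment (mm10) and featureCounts for counting, and the authors deposited the raw counts per gene without normalisation; whether strand was used in counting is not given in the sources used here. The combined table equals the 16 single files. Groups and replicate numbers came from the sample titles.

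Counts were tested with edgeR 4.0.16 in R 4.3.3 (filterByExpr, TMM, 1 mean per group, quasi-likelihood test, 1 fit of 16 libraries, 9642 genes), two-sided, with Benjamini-Hochberg adjustment over all genes tested and 0.05 as threshold. No library was a copy of another (chi-square per gene of 2.91 to 82.1 over 24 pairs of replicates). Log2 CPM used a prior count of 2. Levels per kb used merged GENCODE vM21 exons, and promoters were those of RefSeq. The test was tried on simulated data.

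The members and gene lists were chosen with earlier results of these data known. The genes named were the members, the called ones of 52 further complement genes, the 3 most correlated genes per member, markers and near-identical or overlapping genes. The ratios, the sum of C4b and C4a and the fit without Kaede-red 24h replicates 3 and 4 were chosen after seeing the data. Other alternatives were DESeq2 1.42.0, RLE factors, library size only, no filter, at least 10 counts in every library, a robust fit, Rn45s left out or its share as covariate, thinned Kaede-red libraries, the groups compared only, a replicate block and leaving out each library.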

Additional observations from a re-analysis of the deposited data

Results flagged for a closer look

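In 2 of the 27 sets of 4 libraries examined, 1 library lay further from the rest than the critical value of Dixon's ratio allows, a test that chance alone flags in about 1 of 20 groups. Cfb in Kaede-green 72h replicate 3 was the lowest of its group, at 37.9 CPM against 61.2 to 67.0 CPM in the other libraries (Dixon's ratio 0.840). Serping1 in Kaede-green 24h replicate 2 was the highest of its group, with 2 counts where the other 3 libraries had none (ratio 1.0). With no counts in those 3 libraries, any count in the remaining one gives this ratio, so the chance rate above does not apply to it. No difference between the effects at 24h and 72h passed the threshold for a member.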

How the results depend on the processing

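Of the 332 alternative counts of called genes, 300 stayed within 1.5 times the reported count. Of 1052 alternative values of single members, 961 were kept. A fold change counted as kept by its direction and call, whatever its size. A log2 CPM level counted as kept where it lay within the SD of its group from the reported value. The cause of the other shifts was not tested, unless it follows from the setting. Scaling by library size alone moved the median of all genes to 2.20 for the times together, 2.33 for 24h and 2.04 for 72h, and there 17, 18 and 16 of the other complement genes and, at 24h, 6 members were called, C3 with 2.48, Cfb with 2.69 and Cfp with 2.504, close to that median; with time in Kaede-red cells it left 0 members and 0 other genes. It also gave changes in Kaede-green of 0.40 for Cfp and 0.54 for C5ar1 against a median of 0.74, and changes of the red-green difference of -0.022 for Cfb and -0.22 for C3ar1. With the Rn45s share as covariate, 1 member was called in each comparison of the colours, and 4, 3 and 4 other genes, with 1 other gene for time in Kaede-red cells; C3 at 24h became -0.47, Cfp at 24h -0.12 and C3ar1 with time in Kaede-green -0.0025. In Kaede-green with time, DESeq2, library size only and no filter each called 1 other gene. With time in Kaede-red cells, a minimum of 10 counts called 2 members (Cfb with adjusted p = 0.0444), and without the 2 Kaede-red 24h libraries with most Rn45s 0 members and 0 other genes were called; in that fit the change of the difference for C3ar1 was -0.0067. For the change of the difference, DESeq2 and no filter each called 1 member (C3), and DESeq2 and a minimum of 10 counts 2 other genes each; that of C4b was 0.052 with no filter and 0.039 with thinned libraries. Leaving out 1 library gave 3 to 6 other genes with time in Kaede-red cells and 0 to 1 members for the change of the difference. It gave ranges of -0.15 to 0.26 for C3 and -0.027 to 0.23 for Cfp at 24h, of -0.018 to 0.39 for C3, -0.17 to 0.19 for C3ar1 and -0.30 to 0.0089 for C5ar1 with time in Kaede-green, and of -0.59 to 0.27 for C4b in the change of the difference.

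Replicate numbers were checked for pairing. Deviations from the group means of same-numbered libraries correlated by 0.05 to 0.15 between the colours at 24h, where 2 of 4 libraries were most alike to their own number, and by -0.02 to 0.03 at 72h, where none was. Between Kaede-red at 24h and 72h they correlated by 0.04 to 0.14, with 4 of 4 most alike to their own number, and in the other 3 pairs of groups by -0.04 to 0.12. Mice of 24h and 72h were killed on different days, so libraries of these times cannot share a tumour. What the likeness between the times reflects was not tested. Since neither the labels nor a correlation over 0.1 in every pair tied the numbers, no pairing was assumed. A replicate block called 2 members with time in Kaede-red cells (C3, and Cfb with adjusted p = 0.0415), 1 member for the change of the difference (C3, 1.10, adjusted p = 0.0432) and 1 other gene for it, and moved no other count by over 1.5 times.

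Depth limits C4b and Serping1 most, with at most 13 and 2 counts in a Kaede-green library.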
